A study of Mus musculus with 24 samples.

Results

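Collagens are the fibre- and sheet-forming proteins of the extracellular matrix, and the measurements below follow their transcripts in mouse embryonic fibroblasts (MEF) as the cells left a serum-starved resting state. Every probe set that the array annotation assigns to 1 gene with a symbol of the form Col, number, a, number was taken, which gave 47 probe sets for 44 genes of 22180 genes in all. Where a gene had more than 1 probe set, the one with the highest mean over the arrays was used. Of the 44 genes, 25 reached an intensity of 20 on at least 2 arrays and were tested, namely 9 of 11 fibrillar collagens, 3 of 6 type IV collagens and 13 of 27 others.

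RNA was hybridised to 24 Affymetrix Mouse Gene 2.0 ST arrays. Early-passage MEF in DMEM with 10% foetal calf serum (FCS) were kept for 48 h in low serum, given as 0.5% in the sample protocol and the study's methods and as 0.1% in the series design text, and then returned to 10% FCS. Cells were collected at 0 h, at the end of starvation, then at 0.5, 1 and 2 h and every 2 h to 30 h, and unsynchronised MEF growing in full medium were the other group. The 0, 12, 18 and 24 h points and the unsynchronised cells had 2 arrays each and the 14 remaining times had 1. The labels give no genotype for any group and no treatment other than serum. Nothing in the labels beyond the words "biological replica" says that the duplicates came from separate cultures, so the p-values measure only the spread between these arrays, and times with 1 array borrow their spread from the duplicated groups.

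A collagen molecule is a triple helix of 3 chains, made from 1 gene or from several genes of the same type. Fibrillar collagens (types I, II, III, V, XI, XXIV and XXVII) assemble into the banded fibres that give tissues tensile strength, and type IV forms the sheet-like network of basement membranes. The others sit on fibre surfaces (types IX, XII, XIV and XVI), form beaded filaments (type VI), short-chain networks (types VIII and X) or anchoring fibrils (type VII), or cross the cell membrane (type XXIII). Fibroblasts are the main source of types I, III, V and VI in connective tissue.

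Promoter sequence was available for 35 of the 44 genes and for 21 of the 25 tested genes, in 23 windows that run from 250 bases before to 50 bases after an annotated start (RefSeq, build GRCm38.p6). The 250 bases before the start are printed for 5 collagens with contrasting courses: Col3a1, Col11a1 and Col1a2, which were high in starved cells and lower late after serum, Col5a3, which was highest at 6 h, and Col7a1, which was lowest in starved cells. Capitals mark 4 short motifs, searched on both strands, none of which contains another. CCAAT is a common promoter element bound by NF-Y. The letters TATAAA form the element bound by TATA-binding protein. GGGCGG is the element bound by Sp1, and CAGACA occurs in elements bound by Smad proteins. The stretches are chr1:45311288-45311537 (plus strand) for Col3a1, chr3:114030290-114030539 (plus strand) for Col11a1, chr6:4505368-4505617 (plus strand) for Col1a2, chr9:20815068-20815317 (minus strand) for Col5a3 and chr9:108953336-108953585 (plus strand) for Col7a1.
Col3a1: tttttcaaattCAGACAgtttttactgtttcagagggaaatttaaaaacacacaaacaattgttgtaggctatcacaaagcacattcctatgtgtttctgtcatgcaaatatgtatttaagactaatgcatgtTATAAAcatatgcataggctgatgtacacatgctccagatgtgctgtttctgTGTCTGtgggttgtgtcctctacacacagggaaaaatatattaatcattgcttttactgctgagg
Col11a1: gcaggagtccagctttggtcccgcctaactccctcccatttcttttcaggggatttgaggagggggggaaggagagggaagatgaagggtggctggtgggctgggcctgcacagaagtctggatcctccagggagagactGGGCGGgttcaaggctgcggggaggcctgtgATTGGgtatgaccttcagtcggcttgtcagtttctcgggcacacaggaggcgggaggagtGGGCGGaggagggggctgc
Col1a2: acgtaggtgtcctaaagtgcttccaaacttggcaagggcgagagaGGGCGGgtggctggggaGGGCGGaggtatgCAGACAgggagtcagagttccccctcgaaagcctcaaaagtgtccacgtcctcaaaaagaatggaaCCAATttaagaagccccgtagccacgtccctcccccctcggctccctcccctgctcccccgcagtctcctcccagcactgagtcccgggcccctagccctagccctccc
Col5a3: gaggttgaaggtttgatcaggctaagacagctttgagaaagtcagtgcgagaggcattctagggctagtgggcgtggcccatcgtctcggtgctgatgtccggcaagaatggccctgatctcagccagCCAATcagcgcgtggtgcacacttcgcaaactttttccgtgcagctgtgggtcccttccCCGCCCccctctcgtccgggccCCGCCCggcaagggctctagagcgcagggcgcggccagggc
Col7a1: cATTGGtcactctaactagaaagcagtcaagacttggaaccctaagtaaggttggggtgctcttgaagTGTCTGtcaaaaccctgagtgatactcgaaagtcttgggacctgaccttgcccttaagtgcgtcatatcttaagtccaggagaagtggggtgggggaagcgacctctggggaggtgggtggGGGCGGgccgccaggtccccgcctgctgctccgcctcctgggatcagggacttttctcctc

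GGGCGG stood in 17 of the 23 windows of tested collagens (73.9%), against 35.7% of the 32851 windows of all genes. The Col3a1 window held none. Among the tested collagens TATAAA stood only in the windows of Col3a1, 117 bases before the start, and Col10a1, 32 bases before it. That was 8.7% of the collagen windows, against 13.6% of all windows. CCAAT was in 9 collagen windows (39.1%, against 37.4% of all) and CAGACA in 7 (30.4%, against 21% of all), the second including Col3a1, with 2 matches, and Col1a2. The windows of Col4a1 and Col4a2 lie head to head on opposite strands of chromosome 8 and share 78 bases. The collagen windows are those of genes past the intensity minimum, whereas the windows of all genes were not filtered by intensity. The shares are thus of unlike sets, and no difference between them was tested. These are matches of letters in a fixed window and no site was measured.

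The values are RMA intensities on a linear scale, and differences are given on the log2 scale with the standard error (SE) of the limma fit over all arrays. Adjusted p-values are those of limma with Benjamini-Hochberg adjustment over the 9908 genes tested, and a gene is said to have risen or fallen where that value was under 0.05. Intensities of different probe sets were not compared with each other. All array medians lay between 5.76 and 6.41, the highest being that of the single 26 h array. The 2 arrays at 0 h differed most, with a duplicate SD over all genes of 0.286 log2 units, against 0.156 to 0.199 in the other 4 duplicated groups. Collagens on 0 h replicate 1 were lower than on 0 h replicate 2 by a median of 0.31 log2 units, which bears on every comparison with 0 h.

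Markers of cell types were read against the intensity minimum, which 9908 of the 22180 genes reached. All 10 fibroblast markers listed (among them Pdgfra, Thy1, Dcn and Lum) reached the intensity minimum. None of the 5 epithelial, 4 bone and 1 glial markers on the array did, and of the 6 cartilage markers only Sox9 did, with Acan at 7.26 or below and Matn1 at 6.23 or below on every array. Of the 6 endothelial markers only Kdr and Tek reached the minimum, and the summed levels of all 6 were 62.9 to 65.2 at 0 h, 39.4 to 49.7 at 24 h and 43.6 to 47.3 in unsynchronised cells. Of the 4 adipocyte markers 2 reached it. All 9 macrophage and leukocyte markers and all 5 smooth muscle and myofibroblast markers reached it, and values of these 2 lists are given beside the comparisons.

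**Figure D1:**
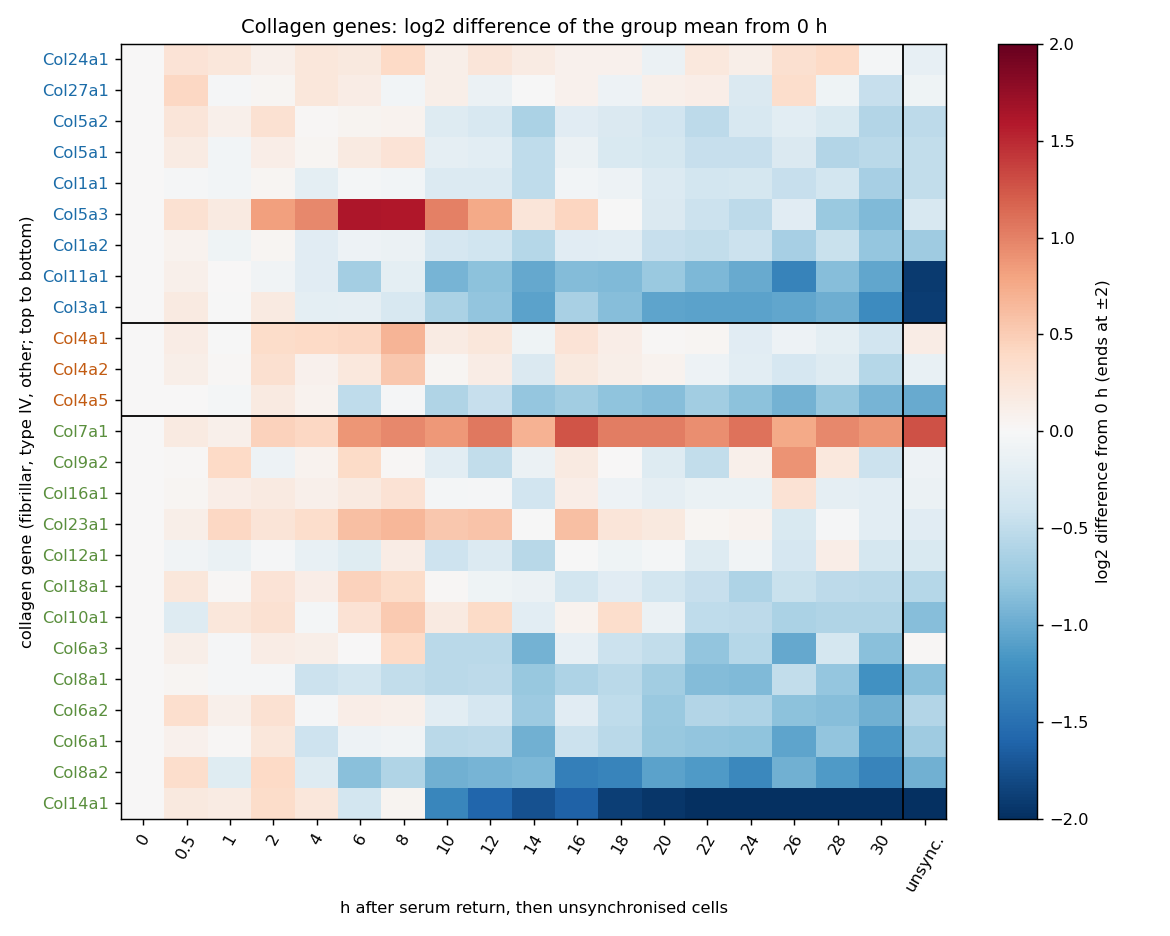
Log2 difference of each group mean from the 0 h mean (colour, ending at ±2) for the 25 tested collagen genes (rows, fibrillar above type IV above others) at each time in h after serum return and in unsynchronised cells (last column). Most rows turn blue from 10 h. Col5a3 is above its 0 h mean from 0.5 h to 16 h, most strongly at 6 and 8 h. Col7a1 is above its 0 h mean at every later time, only faintly at 1 h.

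The first comparison, starved cells at 0 h against unsynchronised cells, asks how collagen transcripts stood at the start of the course. Collagens were mostly higher in starved cells: 13 of 25 rose and 1 fell, where 21% of all genes rose and 21.7% fell. The median log2 difference was 0.49 for the collagens and -0.01 for all genes. By class, 5 of 9 fibrillar, 1 of 3 type IV and 7 of 13 other collagens rose. The median difference was 0.49 for fibrillar, 0.15 for type IV and 0.57 for other collagens.

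Among the fibrillar genes, Col3a1 (type III, the fine fibres of skin and vessels) and Col11a1 (type XI, which nucleates fibrils, best known from cartilage) differed most. Col3a1 had intensities of 1632 and 2082 on the 0 h arrays, against 485 and 507 on the unsynchronised arrays, a log2 difference of 1.89 ± 0.14 (SE, limma adjusted p = 7.38e-06). Col11a1 had 249 and 270 at 0 h, against 65.2 and 72.9 in unsynchronised cells (1.91 ± 0.15, limma adjusted p = 8.48e-06). Neither gene's groups came near to overlapping, both being over 3 times as high at 0 h. The 2 chains of type I collagen, the main fibre of connective tissue, moved together by less. Col1a1 had 2986 and 3122 at 0 h, against 2115 and 2222 in unsynchronised cells (0.49 ± 0.12, limma adjusted p = 0.00799). Col1a2 had 2011 and 2436 at 0 h, against 1334 and 1383 in unsynchronised cells (0.70 ± 0.14, limma adjusted p = 0.00203). All 0 h arrays were above all unsynchronised arrays for both chains. Col5a1, a type V chain that sets fibril diameter, rose by 0.49, while its partner Col5a2 had 467 and 729 at 0 h, against 371 and 440 in unsynchronised cells, and did not pass the test (0.53 ± 0.20, limma adjusted p = 0.0509).

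Of type IV, Col4a5 rose and the partner chains Col4a1 and Col4a2 did not pass the test. Col4a5 had 58.9 and 54.9 at 0 h, against 27.8 and 29.0 in unsynchronised cells (1.00 ± 0.14, limma adjusted p = 2.44e-04), with no overlap. Col4a1, which with Col4a2 makes the type IV molecule of most basement membranes, had 155 and 192 at 0 h, against 188 and 194 in unsynchronised cells. Col4a2 had 174 and 204 at 0 h, against 157 and 182 in unsynchronised cells. Both pairs of groups overlapped, and the log2 differences of -0.14 ± 0.16 and 0.15 ± 0.15 were within about 1 SE of 0.

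The other class held the gene with the largest difference of any collagen in either direction. Col14a1, a fibril-associated collagen that binds the surface of type I fibres, had 67.2 and 93.0 at 0 h, against 9.28 and 8.29 in unsynchronised cells (3.17 ± 0.28, limma adjusted p = 1.79e-05). Both unsynchronised values lay under the intensity minimum, which Col14a1 reached on 14 arrays, none of them unsynchronised or from 22 h on. Col7a1, the anchoring fibril chain that ties basement membrane to the underlying stroma, went the opposite way, with 14.6 and 16.6 at 0 h, against 35.3 and 39.7 in unsynchronised cells (-1.27 ± 0.17, 2.40-fold lower, limma adjusted p = 2.45e-04). It was the only collagen that fell, and it reached the intensity minimum on 20 arrays, none of them from 0 to 1 h. The filter thus favoured the directions of Col14a1 and Col7a1, here and in the later comparisons with 0 h. Col8a2 reached the intensity minimum only on the 0.5 h and 2 h arrays (23.5 and 24.3) and was under it on every array of the comparisons with 0 h and unsynchronised cells, so its differences are between dim values. The short-chain collagens Col8a2 (0.97 ± 0.18, limma adjusted p = 0.00147), Col10a1 (0.85 ± 0.28, limma adjusted p = 0.0306) and Col8a1 (0.84) also rose, as did Col6a1 (0.70), Col6a2 (0.59) and Col18a1 (0.57), a basement membrane collagen that carries heparan sulphate chains. The third chain of type VI, Col6a3, had 380 and 510 at 0 h, against 450 and 442 in unsynchronised cells, so that its groups overlapped (-0.02 ± 0.16) while Col6a1 and Col6a2 rose. A dimmer second probe set of Col6a1 gave a log2 difference of -0.03, so the 2 probe sets of this gene disagreed here, whereas the 2 of Col1a2 gave 0.70 and 0.65.

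Other transcripts moved in the same comparison. Summed macrophage and leukocyte markers were 1556 to 2161 at 0 h, against 936 to 1012 in unsynchronised cells, with 6 of 9 markers higher. Summed smooth muscle and myofibroblast markers (such as Acta2 and Cnn1) were 3855 to 4493 at 0 h, against 6374 to 7580 in unsynchronised cells, with 3 of 5 lower, and summed fibroblast markers were 11915 to 12103 at 0 h, against 9563 to 9901 in unsynchronised cells, with 6 of 10 higher and 2 lower. Their part in the collagen differences was not tested, and in bulk RNA fewer cells of a type and less RNA per cell cannot be told apart. When each array was left out in turn, 9 of the 14 calls passed every time. The other 5 were lost without at least 1 array: Col1a1 without unsynchronised replicate 1 (0.46, limma adjusted p = 0.059), Col5a1 without either unsynchronised array or 0 h replicate 2, Col6a2 without unsynchronised replicate 1 or 0 h replicate 2, Col18a1 without unsynchronised replicate 2 and Col10a1 without either unsynchronised array or 0 h replicate 2.

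**Figure D2:**
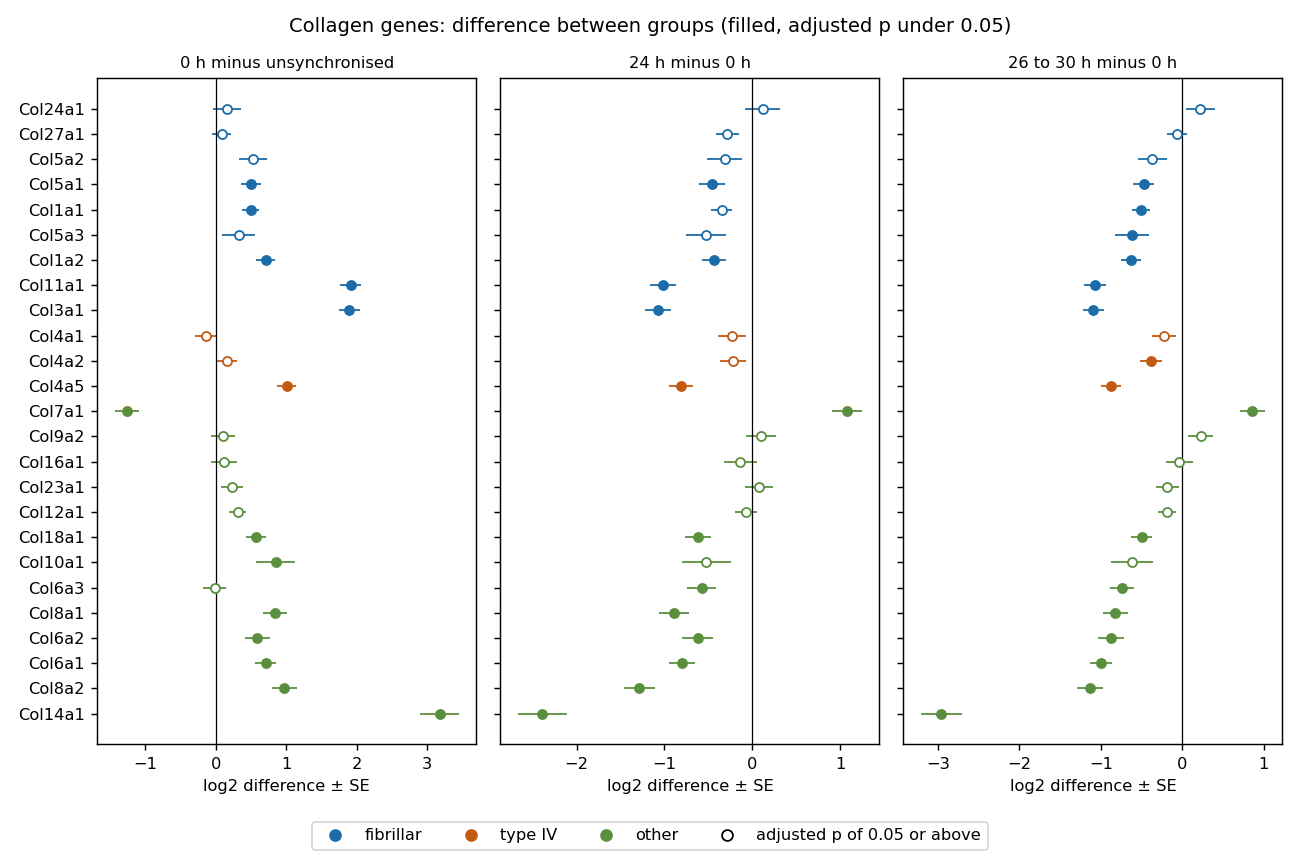
Log2 difference ± SE from the limma fit (x axis) for each tested collagen (rows, coloured by class) in 3 comparisons, with filled points where the adjusted p was under 0.05. In the first panel 13 points are filled to the right of 0 and Col7a1 to the left, and in the other 2 panels, with 12 and 15 points filled to the left, Col7a1 alone is filled to the right.

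After serum was returned, collagen transcripts did not fall together at once. Above their 0 h mean were 22 of the 25 at 0.5 h, 14 at 1 h, 21 at 2 h, 15 at 4 h, 15 at 6 h and 16 at 8 h. From 10 h on most lay below it, with 16 of 25 below at 10 h, 22 at 14 h, 15 at 16 h, 21 at 24 h and 24 at 30 h. The median log2 difference from 0 h was 0.12 at 0.5 h, 0.03 at 1 h, 0.18 at 2 h, 0.10 at 8 h, -0.22 at 10 h, -0.50 at 14 h, -0.11 at 16 h, -0.46 at 24 h and -0.60 at 30 h, while the median of all genes stayed between -0.16 (26 h) and 0.08 (12 h). The medians printed for 0.5 to 10 h and for 16 h were smaller in size than the gap between the 0 h arrays. That gap was a median of 0.31 log2 units for the collagens. The early counts above 0 h are thus not read as a rise, and no share over all genes was taken for them. The single 14 h array was lower than its neighbours on both sides for most collagens. Of the 25 genes 12 were highest between 0 and 2 h, 10 between 4 and 10 h, 1 between 12 and 18 h and 2 later, and 19 were lowest between 20 and 30 h. The windows hold unequal numbers of times, and most times had a single array. The same counts were not taken over all genes, so they are only descriptive. In the F test over the whole course 16 of the 25 changed (64%), against 43.7% of all genes.

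**Figure D3:**
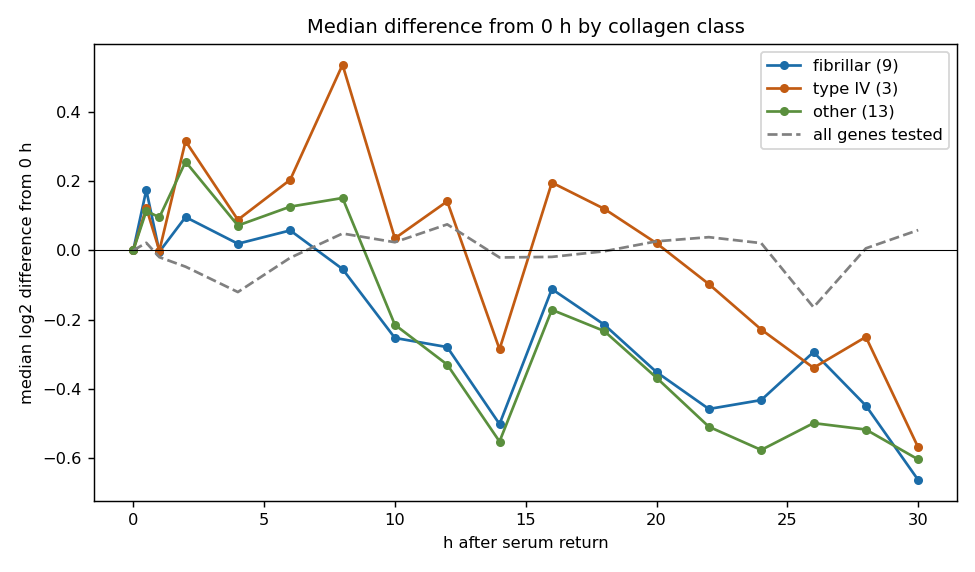
Median log2 difference from the 0 h mean (y axis) by h after serum return (x axis) for the 9 fibrillar, 3 type IV and 13 other collagens tested and for all genes tested (dashed). The type IV median is 0.54 at 8 h, when the fibrillar median is -0.05, and by 30 h all 3 class medians lie between -0.57 and -0.66.

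In the 4 arrays from 4 to 10 h, set against 0 h, 28% of the tested collagens were called, against 41.8% of all genes. Col5a3, Col7a1, Col23a1 and Col4a1 rose and Col8a2, Col11a1 and Col8a1 fell, that is 4 and 3 of 25, where 19.3% of all genes rose and 22.5% fell. The median log2 difference was -0.00 for the collagens and -0.02 for all genes. Col5a3, the least widespread of the type V chains, had 122, 193, 190 and 126 at 4, 6, 8 and 10 h, against 48.5 and 80.8 at 0 h (1.30 ± 0.20, 2.46-fold, limma adjusted p = 4.82e-04). All 4 arrays were above both 0 h arrays. Its partner chains did not pass the test, with log2 differences of 0.08 ± 0.12 for Col5a1 and -0.03 ± 0.17 for Col5a2.

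Col7a1 had 20.8, 28.7, 30.4 and 28.2 from 4 to 10 h, against 14.6 and 16.6 at 0 h (0.78 ± 0.15, limma adjusted p = 0.00183). Col23a1, a membrane-spanning collagen, had 35.4, 42.0, 43.7 and 40.2 from 4 to 10 h, against 23.6 and 32.5 at 0 h (0.54 ± 0.14, limma adjusted p = 0.0089). Both genes had no overlap between the groups. Col4a1 had 227, 230, 277 and 193 from 4 to 10 h, against 155 and 192 at 0 h (0.41 ± 0.14, limma adjusted p = 0.0317), the 10 h array lying only just above the higher 0 h array. Col4a2 had 200, 217, 273 and 193, against 174 and 204 at 0 h, and did not pass the test (0.22 ± 0.13, limma adjusted p = 0.198). Both chains were highest on the same array, at 8 h, and lowest on the same array, at 30 h, with 132 for Col4a1 and 127 for Col4a2.

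The 3 collagens that fell by 4 to 10 h came from the fibrillar class and from the short-chain networks. Col11a1 had 222, 162, 227 and 136 from 4 to 10 h, against 249 and 270 at 0 h (-0.51 ± 0.13, limma adjusted p = 0.00961). Col8a2, a chain of a hexagonal network best known from the cornea, had 15.4, 10.4, 12.2 and 9.43, against 17.3 and 19.7 at 0 h (-0.66 ± 0.15, limma adjusted p = 0.00544), all dim values. Its partner Col8a1 had 394, 412, 378 and 368, against 472 and 601 at 0 h (-0.46 ± 0.15, limma adjusted p = 0.0276). In each of the 3 genes all later arrays were below both 0 h arrays. Calls that did not hold with single arrays left out were Col4a1 (0.26, limma adjusted p = 0.217 without 0 h replicate 1, and lost without the 8 h array), Col23a1 (0.31, limma adjusted p = 0.0843 without 0 h replicate 1), Col8a1 (-0.28, limma adjusted p = 0.187 without 0 h replicate 2) and Col11a1 (-0.37, limma adjusted p = 0.0541 without the 10 h array). Without 0 h replicate 1 the number that rose was 2, and without the 4 h array the number that fell was 5. Smooth muscle and myofibroblast markers summed to 5128 to 5406 from 4 to 10 h, against 3855 to 4493 at 0 h, with 2 of 5 higher and 1 lower, and of the 9 macrophage and leukocyte markers 1 was higher and 1 lower. Their part was not tested.

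**Figure D4:**
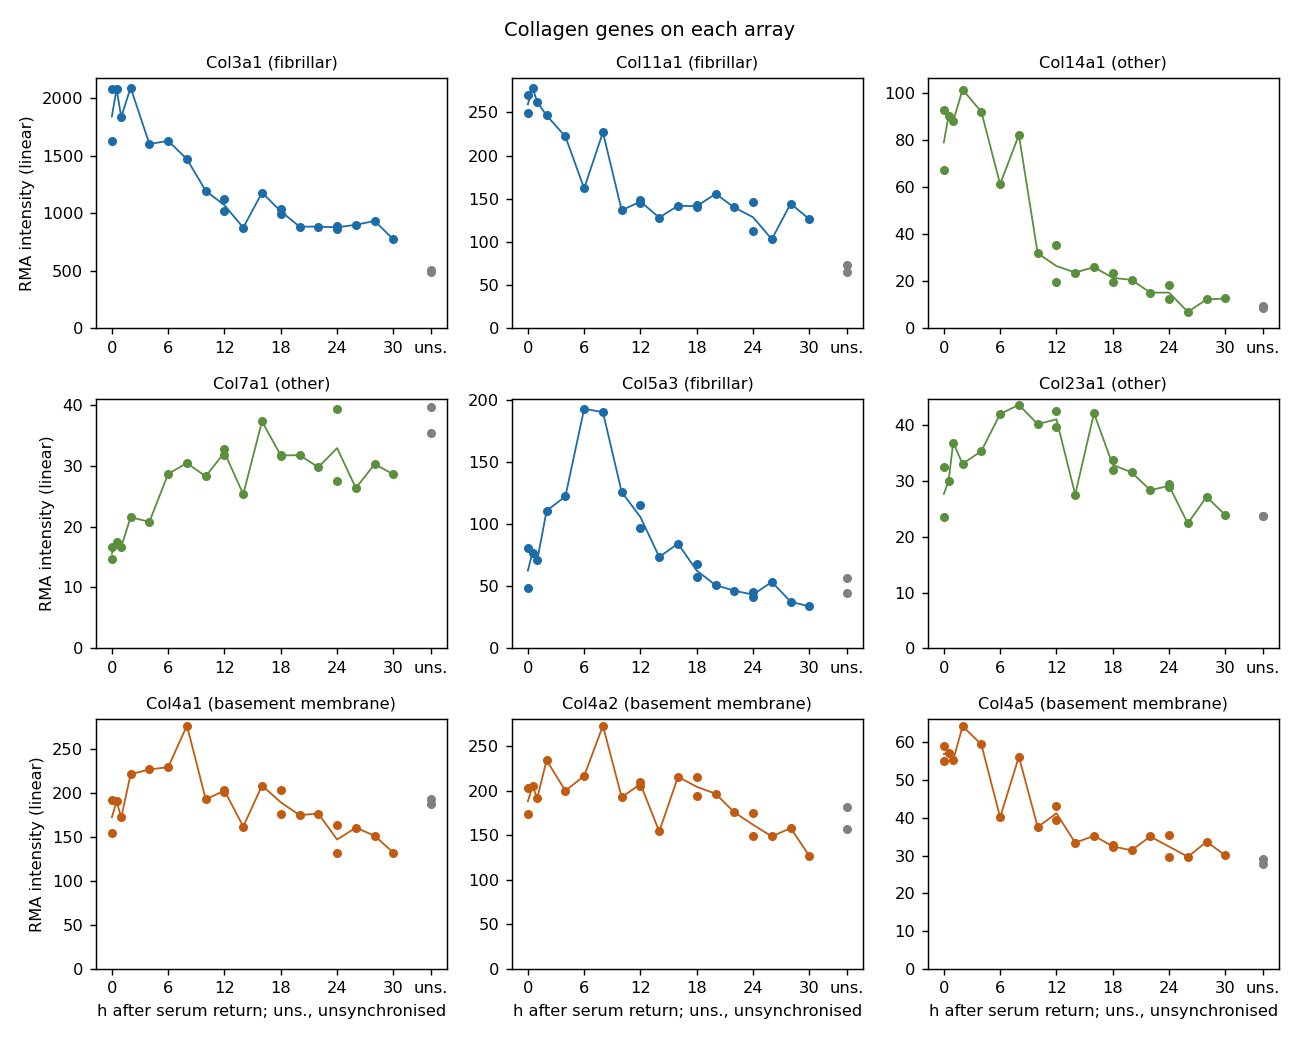
RMA intensity on a linear scale (y axis, from 0) on each array (points) and group mean (lines) by h after serum return (x axis), with unsynchronised cells in grey at the right, for 9 collagens. Col3a1, Col11a1 and Col14a1 are high to 2 h and low late, Col5a3 stands at 193 and 190 at 6 and 8 h, Col4a1 and Col4a2 share their highest array at 8 h, and Col7a1 is lowest at 0 h.

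At 12 h, when 3 of 25 collagens rose and 10 fell against 0 h (18.9% and 11.8% of all genes), the fibrillar genes Col3a1 and Col11a1 had dropped clearly. Col3a1 had 1020 and 1121 at 12 h, against 1632 and 2082 at 0 h (-0.79 ± 0.14, limma adjusted p = 0.00245). Col11a1 had 145 and 148 at 12 h, against 249 and 270 at 0 h (-0.82 ± 0.15, limma adjusted p = 0.00227). Neither overlapped. Of type I, Col1a2 fell (-0.40 ± 0.14, limma adjusted p = 0.0459) and Col1a1 did not pass the test (-0.28 ± 0.12, limma adjusted p = 0.106), although all 12 h arrays of both were below the 0 h arrays. Col5a3 was still higher, with 116 and 96.6 at 12 h, against 48.5 and 80.8 at 0 h (0.76 ± 0.23, limma adjusted p = 0.0291).

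Col4a5, whose product joins a type IV molecule of specialised basement membranes such as that of the kidney, fell by 12 h, with 43.1 and 39.4, against 58.9 and 54.9 at 0 h (-0.47 ± 0.14, limma adjusted p = 0.0244). Col4a1 (0.23 ± 0.16) and Col4a2 (0.14 ± 0.15) did not pass the test. Among the others Col14a1 had 19.6 and 35.5 at 12 h, against 67.2 and 93.0 at 0 h (-1.58 ± 0.28, limma adjusted p = 0.00191). Col7a1 had 32.7 and 31.7 at 12 h, against 14.6 and 16.6 at 0 h (1.05 ± 0.17, limma adjusted p = 0.00125). These 2 genes moved in opposite directions, each with no overlap. Col23a1 rose by 0.57 (limma adjusted p = 0.0192), and Col8a2 (-0.93, limma adjusted p = 0.00294), Col6a3 (-0.55), Col6a1 (-0.52), Col8a1 (-0.52) and Col9a2 (-0.50), a cartilage fibril-surface collagen, fell. Of the 13 calls 5 held with each array left out, those of Col3a1, Col11a1, Col14a1, Col7a1 and Col8a2. The number that rose was 1 without 0 h replicate 1, 1 without 12 h replicate 1 and 1 without 12 h replicate 2, and the number that fell was 6 without 0 h replicate 2, 4 without 12 h replicate 1 and 4 without 12 h replicate 2. Of the 9 macrophage and leukocyte markers 0 were higher and 1 was lower at 12 h than at 0 h, and of the 5 smooth muscle and myofibroblast markers 1 was higher and 1 lower (median log2 differences -0.31 and 0.42). Their part was not tested.

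At 18 h 1 of 25 collagens rose and 7 fell against 0 h (15.7% and 14.7% of all genes). Col3a1 had 995 and 1038 at 18 h, against 1632 and 2082 at 0 h (-0.86 ± 0.14, limma adjusted p = 0.00133), and Col11a1 fell by 0.88 ± 0.15 (limma adjusted p = 0.00145). Type I stood close to its 0 h level, with Col1a1 at 2944 and 2745, against 2986 and 3122 at 0 h (-0.10 ± 0.12) and Col1a2 at 1931 and 1884, against 2011 and 2436 at 0 h (-0.21 ± 0.14), neither past the test. Col5a3, higher at 12 h than at 0 h, had 57.3 and 68.4 at 18 h, within its 0 h range. Col4a5 fell, with 32.2 and 32.7 at 18 h, against 58.9 and 54.9 at 0 h (-0.81 ± 0.14, limma adjusted p = 0.00128), whereas Col4a1 (0.14 ± 0.16) and Col4a2 (0.12 ± 0.15) overlapped with 0 h. Of the others, Col14a1 (-1.89 ± 0.28, limma adjusted p = 6.18e-04), Col8a2 (-1.33 ± 0.18, limma adjusted p = 3.19e-04), Col6a1 (-0.54) and Col8a1 (-0.54) fell and Col7a1 rose (1.02 ± 0.17, limma adjusted p = 0.00129). The calls of Col6a1 and Col8a1 were each lost without at least 1 array, 18 h replicate 2 in both (Col8a1 also without 18 h replicate 1 or 0 h replicate 2). Without 0 h replicate 1 the number that fell was 11, and without 0 h replicate 2 the number that rose was 2. Macrophage and leukocyte markers summed to 1207 to 1209 at 18 h, against 1556 to 2161 at 0 h, with 1 of 9 higher and 3 lower, and of the 5 smooth muscle and myofibroblast markers 1 was higher and 1 lower. Their part was not tested.

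By 24 h 12 of 25 collagens had fallen and 1 had risen against 0 h, where 12% of all genes fell and 14.5% rose. The median log2 difference was -0.46 for the collagens and 0.02 for all genes. The count that fell was 4 of 9 fibrillar, 1 of 3 type IV and 7 of 13 other collagens. Col3a1 had 863 and 890 at 24 h, against 1632 and 2082 at 0 h (-1.07 ± 0.14, 2.10-fold lower, limma adjusted p = 4.27e-04). Col11a1 had 146 and 113 at 24 h, against 249 and 270 at 0 h (-1.01 ± 0.15, limma adjusted p = 7.15e-04). Both stayed clear of the 0 h arrays. Col5a1 (-0.46 ± 0.14, limma adjusted p = 0.0376) and Col1a2 (-0.43 ± 0.14, limma adjusted p = 0.0366) also fell. Col1a1 had 2461 and 2337 at 24 h, against 2986 and 3122 at 0 h, and did not pass the test although the groups did not overlap (-0.35 ± 0.12, limma adjusted p = 0.0583).

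Type VI collagen, whose 3 main chains make a beaded filament around cells, fell in all 3 chains at 24 h. Col6a1 had 744 and 832 at 24 h, against 1389 and 1360 at 0 h, and fell by 0.80. Col6a2 fell by 0.62 and Col6a3 by 0.58. The dimmer Col6a1 probe set gave -0.54 against -0.80 for the brighter one. Col14a1 had 18.3 and 12.4 at 24 h, against 67.2 and 93.0 at 0 h (-2.39 ± 0.28, 5.25-fold lower, limma adjusted p = 1.69e-04). Both 24 h values lay under the intensity minimum. Col8a2 (-1.29 ± 0.18, limma adjusted p = 4.60e-04), Col8a1 (-0.89 ± 0.17, limma adjusted p = 0.00307) and Col18a1 (-0.62) fell too. Col7a1 alone rose, with 27.5 and 39.3 at 24 h, against 14.6 and 16.6 at 0 h (1.08 ± 0.17, limma adjusted p = 0.00114), the 0 h values being under the minimum.

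In type IV, Col4a5 fell, with 29.6 and 35.4 at 24 h, against 58.9 and 54.9 at 0 h (-0.81 ± 0.14, limma adjusted p = 0.0015). Col4a1 (-0.23 ± 0.16) and Col4a2 (-0.22 ± 0.15) overlapped with 0 h. Summed macrophage and leukocyte markers were 1080 to 1331 at 24 h, against 1556 to 2161 at 0 h, with 6 of 9 markers lower and 1 higher. Summed fibroblast markers were 12498 to 12737 at 24 h, against 11915 to 12103 at 0 h, with 4 of 10 markers higher and 3 lower. Of the 5 smooth muscle and myofibroblast markers 1 was higher and 1 lower. The part of these markers in the collagen differences was not tested. Of the 13 collagen calls 8 held with each array left out. Those of Col1a2, Col5a1, Col6a3, Col6a2 and Col18a1 did not, and without 24 h replicate 1 the number that fell was 7.

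The 3 last arrays, at 26, 28 and 30 h, gave the highest count, with 15 of 25 lower and 1 higher than at 0 h (18.9% and 14% of all genes). The median log2 difference was -0.50 for the collagens and -0.03 for all genes. Lower were 6 of 9 fibrillar, 2 of 3 type IV and 7 of 13 other genes. Col3a1 had 899, 932 and 771 from 26 to 30 h, against 1632 and 2082 at 0 h (-1.09 ± 0.13, limma adjusted p = 1.87e-04). Col11a1 had 103, 144 and 126, against 249 and 270 at 0 h (-1.07 ± 0.14, limma adjusted p = 2.47e-04). In both genes each late array was lower than each 0 h array. Both chains of type I were now lower: Col1a1 had 2212, 2356 and 1927, against 2986 and 3122 at 0 h (-0.50 ± 0.11, limma adjusted p = 0.00645), and Col1a2 fell by 0.63 ± 0.12 (limma adjusted p = 0.00322). Col5a1 fell by 0.47. Col5a3 had 53.6, 37.6 and 33.8, against 48.5 and 80.8 at 0 h, so that 1 array overlapped (-0.62 ± 0.21, limma adjusted p = 0.0438).

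In the same arrays Col4a5 fell by 0.87 ± 0.12 (limma adjusted p = 4.74e-04), and Col4a2 had 149, 158 and 127, against 174 and 204 at 0 h (-0.39 ± 0.13, limma adjusted p = 0.0484). Its partner Col4a1 had 161, 152 and 132, against 155 and 192 at 0 h, and did not pass the test (-0.22 ± 0.14). Col14a1 had 6.87, 12.1 and 12.6, against 67.2 and 93.0 at 0 h (-2.96 ± 0.25, limma adjusted p = 2.71e-05). Type VI fell as well, with Col6a1 at 659, 798 and 617, against 1389 and 1360 at 0 h (fell by 1.00 ± 0.13, limma adjusted p = 3.41e-04). Col6a2 fell by 0.88 ± 0.16 (limma adjusted p = 0.00214) and Col6a3 by 0.74. Col8a2 (-1.14 ± 0.16, limma adjusted p = 4.77e-04), Col8a1 (-0.83) and Col18a1 (-0.50) fell, and Col7a1 rose by 0.86. The calls of Col5a1, Col5a3, Col4a2 and Col18a1 were lost without 0 h replicate 2, those of Col4a2 also without the 26 h or the 30 h array and of Col5a3 also without the 28 h or the 30 h array. The 12 others held with each array left out, the 26 h array included, without which 14 fell. Without the 30 h array the number that rose was 2. Macrophage and leukocyte markers summed to 1161 to 1351 from 26 to 30 h, against 1556 to 2161 at 0 h, with 0 of 9 higher and 6 lower (median log2 difference -0.53), and of the 5 smooth muscle and myofibroblast markers 1 was higher and 1 lower. Their part was not tested.

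The 26 h array, which had the highest median of all, was also the array on which Col9a2 and Col16a1, a fibril-associated collagen of skin, were highest over the course. Col9a2 had 58.6 at 26 h, against 30.8 to 32.1 at 0 h, and its neighbouring arrays had 40.3 and 28.1 at 24 h and 36.5 at 28 h. Col16a1 had 61.3 at 26 h and 61.1 at 8 h, against 41.9 and 59.8 at 0 h. A single array gives no spread of its own. Col2a1, the defining fibre of cartilage, reached the intensity minimum on that array only, with 21.0. Several collagens under the minimum on every array also had their highest time mean at 26 h. These were Col6a5, Col9a1, Col9a3, Col11a2, Col13a1, Col22a1 and Col25a1, so the high values on this array were not limited to Col9a2, Col16a1 and Col2a1. Over all genes tested, the median log2 difference from 0 h was instead lowest at 26 h, at -0.16. The part of this array in the falls at 26 to 30 h was not tested, and the calls that held without it are given above.

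Because the 0 h arrays differed, the same later groups were also set against the 0.5, 1 and 2 h arrays, a choice made after the values were seen. The number that fell was then 7 at 4 to 10 h, 12 at 12 h, 11 at 18 h, 16 at 24 h and 19 at 26 to 30 h, where the shares of all genes were 21.1%, 12.5%, 15.1%, 13.3% and 20.1%. The number that rose was 2 at 4 to 10 h and 1 at each of the later times, where the shares of all genes were 19.8%, 21.6%, 16.7%, 16.4% and 15.7%. Col8a2 is counted among the genes that fell. It reached the intensity minimum only on the 0.5 h and 2 h arrays, which belong to this baseline. The filter thus favoured its fall, which carries no weight here.

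At 24 h against 12 h 1 of 25 fell and 0 rose, where 1.69% of all genes fell and 1.9% rose by limma. At an unadjusted p under 0.05, 8 collagens were lower and 1 was higher, where 10% of all genes were lower and 6.21% higher. The gene that fell was Col5a3, with 45.7 and 41.1 at 24 h, against 116 and 96.6 at 12 h (-1.29 ± 0.23, 2.44-fold lower, limma adjusted p = 0.011), with no overlap. That call was lost without 12 h replicate 1, without 24 h replicate 1 and without 24 h replicate 2, where the count that fell was 0 and the adjusted p of limma 0.112, 0.064 and 0.0701. Without 24 h replicate 2 the number that rose was 1. Of the 9 macrophage and leukocyte markers 0 were higher and 1 was lower (median log2 difference -0.52). Of the 5 smooth muscle and myofibroblast markers 0 were higher and 0 lower (median log2 difference -0.09), and the part of both lists was not tested.

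At 24 h against unsynchronised cells 2 of 25 rose and 0 fell, where 3.01% of all genes rose and 1.56% fell by limma. At an unadjusted p under 0.05, 3 were higher and 2 lower, where 11.1% of all genes were higher and 7.87% lower. Col3a1 had 863 and 890 at 24 h, against 485 and 507 in unsynchronised cells (0.82 ± 0.14, limma adjusted p = 0.0125). Col11a1 had 146 and 113 at 24 h, against 65.2 and 72.9 in unsynchronised cells (0.90 ± 0.15, limma adjusted p = 0.00983). These 2 fibrillar genes were thus lower at 24 h than at 0 h and still above the unsynchronised cells, without overlap. With single arrays left out the count was 0 without unsynchronised replicate 1, 1 without unsynchronised replicate 2, 0 without 24 h replicate 1 and 1 without 24 h replicate 2. Col6a3 had 300 and 291 at 24 h, against 450 and 442 in unsynchronised cells, and did not pass the test (-0.60 ± 0.16, limma adjusted p = 0.0684). Fibroblast markers summed to 12498 to 12737 at 24 h, against 9563 to 9901 in unsynchronised cells, with 3 of 10 higher and 0 lower. Smooth muscle and myofibroblast markers summed to 4597 to 4674 at 24 h, against 6374 to 7580 in unsynchronised cells, with 0 of 5 higher and 2 lower (median log2 difference -0.67). Macrophage and leukocyte markers summed to 1080 to 1331 at 24 h, against 936 to 1012 in unsynchronised cells. By limma 0 of these 9 were higher and 0 lower (median log2 difference 0.32). Their part was not tested.

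Over the 8 comparisons 20 of the 25 tested collagens were called at least once by limma, where 63.4% of all genes were. The 5 that were not were Col5a2, Col24a1 and Col27a1 of the fibrillar class and the fibril-associated Col12a1 and Col16a1, with log2 differences between -0.37 and 0.53. Col5a2 lies next to Col3a1 on chromosome 1, and Col3a1 fell at 24 h. Col5a2 had 438 and 502 at 24 h, against 467 and 729 at 0 h (-0.31 ± 0.20, limma adjusted p = 0.267). Its 0 h arrays thus differed widely. On the 0.5, 1 and 2 h arrays Col5a2 had 690, 623 and 719, and every array from 10 h on was lower than these. The difference between Col5a2 and Col3a1 was not tested. Col12a1 had 1620 and 1594 at 24 h, against 1722 and 1659 at 0 h (-0.07 ± 0.12), while Col14a1, of the same fibril-associated group, fell. Of the 19 genes that did not reach the minimum, Col2a1 and Col11a2 were fibrillar, Col4a3, Col4a4 and Col4a6 were type IV, and Col6a4, Col6a5, Col6a6, Col9a1, Col9a3, Col13a1, Col15a1, Col17a1, Col19a1, Col20a1, Col22a1, Col25a1, Col26a1 and Col28a1 were of the other class. Apart from Col2a1 none of these exceeded 15.2 on any array, under the intensity minimum.

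The machinery that makes, exports and anchors collagen was followed in 4 lists, chosen with earlier results of these data known. For each list the shares of all genes are 21% that rose and 21.7% that fell at 0 h against unsynchronised cells, and 14.5% that rose and 12% that fell at 24 h against 0 h. Of the enzymes and chaperones that modify and fold the chains 3 of 17 tested rose and 2 fell at 0 h against unsynchronised cells (median log2 difference 0.15), and 1 rose and 1 fell at 24 h against 0 h (median -0.15). P3h2, a prolyl 3-hydroxylase, was higher at 0 h than in unsynchronised cells (1.64) and lower at 24 h than at 0 h (-1.50). P4ha2, a catalytic subunit of prolyl 4-hydroxylase, went the other way (-0.46 and 0.79). Of the secretion genes 5 of 8 rose at 0 h against unsynchronised cells (median 0.43), led by Creb3l1, a transcription factor of the secretory pathway that acts on type I collagen genes (0.99), Kdelr3 (0.78) and the COPII coat gene Sec31a (0.57). At 24 h against 0 h 2 of them fell, Creb3l1 (-0.74) and Sec31a (-0.38) (median -0.29).

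Extracellular processing and cross-linking genes moved with no common direction. At 0 h against unsynchronised cells 2 of 10 rose and 4 fell (median -0.08), and at 24 h against 0 h 3 rose and 1 fell (median 0.16). Pcolce2, an enhancer of procollagen C-proteinase, was lower at 0 h than in unsynchronised cells (-3.07) and higher at 24 h than at 0 h (2.33), as were the proteinase Tll1 (-1.70 and 1.65) and the lysyl oxidase Loxl3 (-1.87 and 1.31). Adamts14, which removes the amino-terminal propeptide, did the reverse (1.14 and -1.08). Of the collagen receptors and uptake genes 5 of 7 rose and 1 fell at 0 h against unsynchronised cells (median 0.65), and 1 rose and 4 fell at 24 h against 0 h (median -0.66). Mrc2, an endocytic collagen receptor, was higher at 0 h than in unsynchronised cells (1.47) and lower at 24 h than at 0 h (-0.84), as was the integrin chain Itga11 (1.17 and -1.06). Itga2, an integrin chain for collagen, rose by 4.30 at 4 to 10 h against 0 h, 3.34 at 12 h and 1.52 at 24 h. Its mean intensity at 0 h was 11.3, under the minimum, and at 26 to 30 h it did not pass the test (0.73, limma adjusted p = 0.0656). All these comparisons share the same 2 arrays at 0 h.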

How the data were processed

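RNA from MEF was hybridised to 24 Affymetrix Mouse Gene 2.0 ST arrays. The authors normalised the arrays with RMA in oligo and checked quality with ArrayQualityMetrics (versions and genome build: not given in the sources used here). Values were deposited as intensity; 1 file header calls them log2, but they run from 1.74 to 6335 and were log2-transformed here. RMA gives every array nearly the same distribution, so changes in total RNA are not seen. Of 41345 probe sets, 23521 carried 1 gene in the platform annotation, 1820 several and 16004 none; genes at 20 or more on 2 arrays were kept, by the brightest probe set. limma 3.58.1 (R 4.3.3) was fitted with 1 mean per group (5 residual and 5.58 prior degrees of freedom). Called members were named, with full statistics for at most 4 per class and comparison. Members, lists and tests were chosen with earlier results of these data known. The fit was tested on simulated data. The number of arrays limits the precision. Alternatives changed the minimum, probe set choice, centring, normalization, moderation, fold threshold, samples and replicate block. Protein features were not analysed here. Promoter windows were searched in Python 3.11.15.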

Additional observations from a re-analysis of the deposited data

How the results depend on the processing

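With at least 2-fold required as well, the counts of collagens called were 4 higher at 0 h against unsynchronised cells, 1 higher and 0 lower at 4 to 10 h against 0 h, 1 higher and 1 lower at 12 h, 2 lower at 18 h, 4 lower at 24 h, 0 higher and 4 lower at 26 to 30 h, and 0 higher at 24 h against unsynchronised cells, where the shares of all genes were, in the same order, 6.8%, 4.42%, 5.48%, 4.68%, 3.76%, 4.26%, 3.81%, 2.79%, 4.72% and 0.828%. With a fit on only the groups compared they were 2 higher and 1 lower at 4 to 10 h, 1 higher and 4 lower at 12 h, 7 lower at 24 h, 8 lower at 26 to 30 h and 1 lower at 24 h against unsynchronised cells (all genes 9.4%, 11.7%, 11%, 7.27%, 6.66%, 7.13% and 1.37%). A variance trend with robust moderation gave 5 lower at 4 to 10 h and 1 lower at 24 h against unsynchronised cells (all genes 23% and 1.91%), and no intensity minimum gave 2 higher at 26 to 30 h (all genes 6.02%), the second being Col6a5. With 0.5 to 2 h as the baseline, an alternative added after seeing the data, 2 were higher and 7 lower at 4 to 10 h, 1 higher at 12 h and 11 lower at 18 h (all genes 19.8%, 21.1%, 21.6% and 15.1%). The cause of these differences was not tested.

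With each array left out in turn, the counts higher and lower were 9 to 16 and 1 to 1 at 0 h against unsynchronised cells, 2 to 5 and 2 to 5 at 4 to 10 h, 1 to 3 and 4 to 8 at 12 h, 1 to 2 and 5 to 11 at 18 h, 1 to 1 and 7 to 14 at 24 h, 1 to 2 and 11 to 17 at 26 to 30 h, 0 to 1 and 0 to 1 at 24 h against 12 h, and 0 to 1 and 0 to 0 at 24 h against unsynchronised cells. The F test called 12 to 20. Of 74 called results 20 passed under every alternative and 0 changed direction.

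Replicate numbers did not pair the arrays (correlations of the duplicates' differences between -0.37 and 0.22). With the replicate block 14 collagens were higher and 1 lower at 0 h against unsynchronised cells, 3 and 9 at 12 h, 1 and 8 at 18 h, 1 and 10 at 24 h, 0 and 1 at 24 h against 12 h, and 2 and 0 at 24 h against unsynchronised cells. Dim genes (Col8a2, Col24a1, Col14a1 late, Col7a1 at 0 h) lie near or under the intensity minimum, which limits their fold changes. The filter favoured the directions of Col14a1 and Col7a1, and that of Col10a1 against unsynchronised cells. With a mean intensity of at least 20 required, Col8a2 and Col24a1 were not tested. Col8a2 reached the minimum only on the 0.5 h and 2 h arrays, so the filter favoured its falls from the 0.5 to 2 h baseline.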
